A study of Mus musculus with 35 samples.

Results

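Cirbp (cold-inducible RNA-binding protein, ENSMUSG00000045193) and Rbm3 (RNA-binding motif protein 3, ENSMUSG00000031167) encode cold-inducible RNA-binding proteins, and their transcripts were followed in brown fat over a cold exposure. The members were chosen by name and are 2 of the 55421 genes listed in the count table. Both had reads in every one of the 35 libraries and both passed the filter on low counts in every comparison.

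RNA from interscapular brown adipose tissue (iBAT) was counted in 35 male C57BL/6J mice aged 9 to 10 weeks, with 1 library of 3′ end reads (QuantSeq) per mouse and 5 mice per group. The control mice stayed at the room temperature (RT) of the colony, 24 °C ± 2, and the 6 other groups spent between 6 hours and 5 days at 6 °C, with 1 group for each full day. Mice in the cold were kept singly and without nesting, so the effects of temperature and of housing cannot be told apart. The hour of the day at which tissue was taken and the temperature of the tissue are not given in the sources used here.

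Both genes encode small nuclear and cytoplasmic proteins with an RNA recognition motif followed by a glycine-rich stretch, and they bind and stabilise target transcripts and support translation during stress. In cultured mammalian cells their transcripts rise on a mild fall in temperature and fall on warming, the reverse of the heat shock genes, and Cirbp is also known for its effect on transcripts of the circadian clock. Brown fat is the organ of non-shivering heat production, which noradrenaline from sympathetic nerves switches on in the cold.

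In the GRCm38 annotation, Cirbp lies at chr10:80165985-80172786 on the + strand, with 7 annotated transcripts of which 2 are protein coding. Rbm3 lies at chrX:8138975-8145880 on the − strand, with 11 annotated transcripts of which 6 are protein coding. The 7 Cirbp transcripts end at 7 different places and the 11 Rbm3 transcripts at 10, so a 3′ read count per gene adds up their products and cannot tell them apart. The antisense gene Rbm3os shares 94 bases of exon with Rbm3, at the 5′ end of Rbm3 and 6663 bases from its 3′ end, and had 0 to 6 reads per library against 8 to 31 for Rbm3. Whether strand was used in the counting is not stated, so reads of this overlap cannot be assigned. The processed pseudogene Rbm3-ps had 0 reads in all libraries.

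The RefSeq window shown runs from 250 bases before to 50 bases after a RefSeq start of Cirbp. That start, 80167839, lies inside the gene span given above, and so does the whole window. The window is shown because Cirbp induction by mild cold has been traced to an octamer in its promoter, the mild-cold-responsive element. The transcription factor Sp1 binds to this element. The window is chr10:80167589-80167888 of GRCm38.p6, + strand, and the capitals mark the match to TCCCCGCC.

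Cirbp promoter: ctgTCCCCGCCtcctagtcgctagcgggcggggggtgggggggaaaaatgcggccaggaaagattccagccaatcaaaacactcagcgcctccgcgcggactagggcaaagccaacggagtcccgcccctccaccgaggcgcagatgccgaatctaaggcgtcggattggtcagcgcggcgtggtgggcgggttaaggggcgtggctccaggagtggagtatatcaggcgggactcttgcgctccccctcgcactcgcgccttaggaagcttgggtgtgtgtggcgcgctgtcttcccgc

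Searched on both strands, TCCCCGCC was found 1 time in this window, on the + strand and 247 bases before that RefSeq start. Of 32851 promoter windows of the same length 5.38% hold it. The GC box GGGCGG, also a binding sequence of Sp1, was found 3 times without overlap with the octamer, and 35.7% of windows hold it. The heat shock element GAANNTTC, the cAMP response element TGACGTCA and the E-box CACGTG were found 0 times, and are held by 7.86%, 1.79% and 7.15% of windows. In the other RefSeq window of Cirbp, chr10:80167921-80168220, TCCCCGCC matched 0 times and GGGCGG 4 times. A match is a run of letters and not a measured site, and no binding was measured in these mice.

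The libraries held 3846016 to 6047247 counted reads, of which 33.6% to 46.2% came from genes of the mitochondrial genome and 7.80% to 16.3% from Gm42418. Brown adipocyte markers were present in every library. The 7 markers, among them Ucp1 (uncoupling protein 1), summed at RT to 12442 to 15976 CPM (reads scaled to a common library total). In the cold groups they summed to 13161 to 23297 CPM. The 4 genes used to check the response to cold, Ucp1, Dio2 (type 2 deiodinase), Ppargc1a and Elovl3, rose at all 6 durations. Ucp1 measured 1897 ± 605 CPM at RT and 7611 ± 1128 CPM after 5 days (SD, n = 5), a log2 fold change of 1.98. In whole tissue, fewer cells of a type and less RNA per cell cannot be told apart.

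Cirbp fell in the cold. Its mean level at 6 hours was 25.5% of the RT mean, and from 1 to 5 days it lay between 37.0% and 59.6% of that mean. Levels are given as TMM-scaled CPM. The reads are few, 1 read being worth 0.165 to 0.260 CPM before TMM scaling, so reads and CPM are stated together.

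At RT the 5 mice had 82, 64, 68, 116 and 80 Cirbp reads, or 15.6, 12.2, 14.8, 18.9 and 14.4 CPM. After 6 hours the reads were 18, 11, 19, 18 and 20, or 4.69, 2.56, 4.25, 4.25 and 3.64 CPM. The groups did not overlap, as every mouse at 6 hours lay below the lowest RT mouse. Here and in later comparisons, the share of all genes whose groups do not overlap is not given, so a lack of overlap only describes the mice compared. The means were 15.2 ± 2.44 CPM at RT and 3.88 ± 0.83 CPM at 6 hours (SD, n = 5). The log2 fold change was −2.0 (SE 0.20), a 4.01-fold lower level, with an adjusted p of 2.7e-08 in edgeR's quasi-likelihood test with Benjamini-Hochberg adjustment over all genes. Of the 10593 genes tested at 6 hours 42.8% were called at an adjusted p below 0.05 in either direction, and 1.14% had a log2 fold change as low as that of Cirbp or lower.

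From 1 day on, the mean level of Cirbp was above that at 6 hours and below that at RT. After 1 day the mice had 37, 44, 76, 30 and 30 reads, or 6.87, 10.2, 13.7, 7.65 and 6.90 CPM. After 2 days they had 34, 32, 40, 50 and 20 reads, or 5.14, 7.49, 7.17, 12.8 and 5.71 CPM. In each of these groups 4 mice lay below every RT mouse and 1 mouse lay within the RT range. After 3 days the mice had 26, 26, 18, 27 and 47 reads, or 6.13, 5.37, 3.20, 5.22 and 12.1 CPM. After 4 days they had 26, 39, 33, 29 and 28 reads, or 4.73, 6.70, 5.75, 5.85 and 5.06 CPM. After 5 days they had 46, 15, 28, 23 and 42 reads, or 9.94, 3.31, 6.03, 4.50 and 8.44 CPM. These 3 groups lay wholly below the RT range, although the highest mouse at 3 days, at 12.1 CPM, was next to the lowest RT mouse, at 12.2 CPM.

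The log2 fold change of Cirbp against RT was −0.76 after 1 day (SE 0.20, adjusted p = 0.00475) and −1.02 after 2 days (SE 0.22, adjusted p = 0.00176). It was −1.29 after 3 days (SE 0.25, adjusted p = 5.7e-04), −1.46 after 4 days (SE 0.18, adjusted p = 1.1e-06) and −1.26 after 5 days (SE 0.23, adjusted p = 1.3e-04). Over all genes 36.8% were called at 1 day, 31.0% at 2 days, 34.0% at 3 days, 38.0% at 4 days and 38.6% at 5 days, so being called was common. A log2 fold change as low as that of Cirbp was found in 10.9% of genes at 1 day, 4.68% at 2 days, 2.42% at 3 days, 2.07% at 4 days and 3.34% at 5 days. The 6 comparisons share the same 5 RT mice and are not independent of each other.

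**Figure D1:**
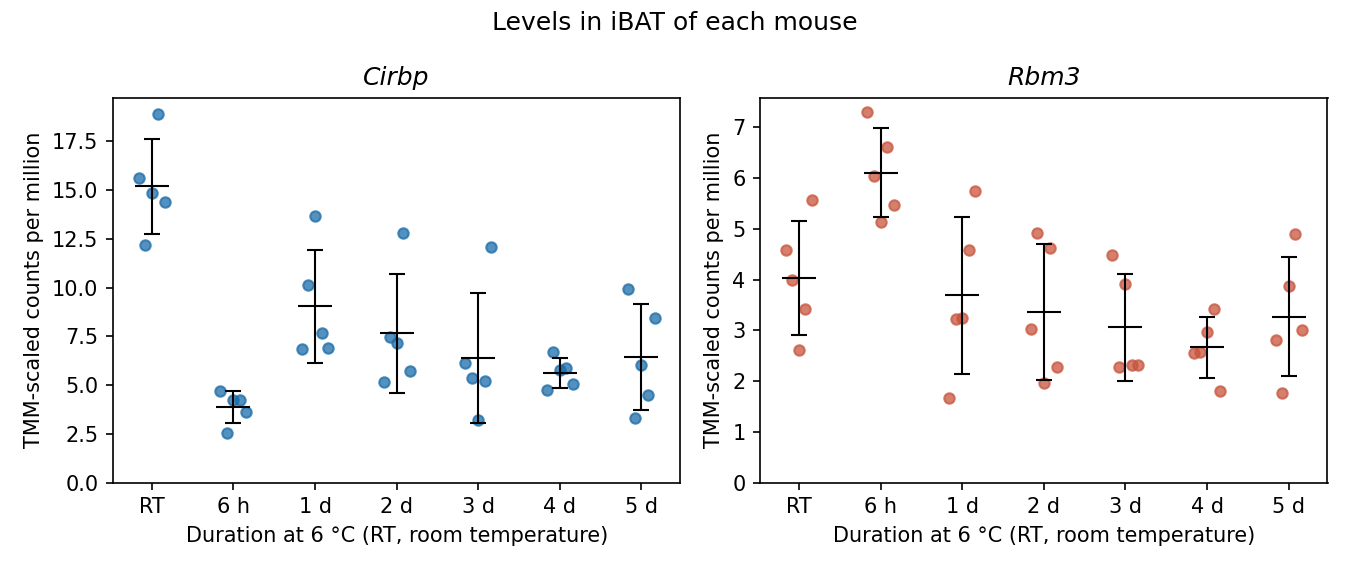
TMM-scaled CPM of Cirbp (left) and Rbm3 (right) in each of 35 mice, by duration at 6 °C. Points are mice, and the bar with whiskers is the mean ± SD of 5 mice. All 5 mice at 6 hours lie below every RT mouse for Cirbp, at 2.56 to 4.69 CPM, and 3 of the 5 lie above every RT mouse for Rbm3.

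Rbm3 was not called against RT at any duration in edgeR's quasi-likelihood test. At RT the mice had 24, 21, 12, 21 and 31 Rbm3 reads, or 4.58, 4.00, 2.62, 3.42 and 5.57 CPM. After 6 hours they had 28, 26, 23, 28 and 30 reads, or 7.30, 6.04, 5.14, 6.61 and 5.46 CPM. The groups overlapped, with 3 mice at 6 hours above every RT mouse and the others within the upper part of the RT range. The means were 4.04 ± 1.12 CPM at RT and 6.11 ± 0.87 CPM at 6 hours (SD, n = 5).

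The log2 fold change of Rbm3 at 6 hours was 0.55 (SE 0.24, 95% interval 0.08 to 1.03), with an adjusted p of 0.0706 in edgeR's quasi-likelihood test. A two-sided exact permutation test of log2 CPM in the same 5 against 5 mice gave p = 0.0238. Adjusted over the 12 such tests computed for the pair of genes, this exact permutation p was 0.0408. Without RT replicate 5, which had the highest Rbm3 level of its group, the log2 fold change was 0.70 and the adjusted p 0.0327, and without RT replicate 3, which had the lowest, they were 0.44 and 0.162. None of the other fits without 1 mouse called it. The log2 fold change was 0.36 with library size as the only scaling (adjusted p = 0.258 in edgeR). At 6 hours 14.8% of genes had a log2 fold change as high as that of Rbm3 or higher.

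At the later durations the mean Rbm3 level lay below that of RT, at 66.0% to 91.5% of it, without passing the test. After 1 day the mice had 9, 14, 18, 18 and 25 reads, or 1.67, 3.23, 3.24, 4.59 and 5.75 CPM. After 2 days they had 20, 21, 11, 18 and 8 reads, or 3.03, 4.91, 1.97, 4.62 and 2.28 CPM. Both groups spread over the whole RT range of 2.62 to 5.57 CPM or most of it. After 3 days the mice had 19, 11, 22, 12 and 9 reads, or 4.48, 2.27, 3.91, 2.32 and 2.31 CPM. After 4 days they had 14, 15, 17, 17 and 10 reads, or 2.55, 2.58, 2.96, 3.43 and 1.81 CPM. After 5 days they had 13, 8, 18, 25 and 15 reads, or 2.81, 1.77, 3.88, 4.90 and 3.02 CPM. After 3 and after 4 days 3 mice lay below every RT mouse, and after 5 days 1 mouse did, so each group still overlapped RT. The log2 fold changes were −0.18, −0.30, −0.41, −0.63 and −0.33 in that order, with adjusted p-values of 0.694, 0.50, 0.322, 0.0926 and 0.428. The 95% intervals ran from −0.79 to 0.44 after 1 day and from −1.20 to −0.06 after 4 days. The first of these holds changes of either sign. At 4 days the exact permutation test gave p = 0.0397, or 0.0595 after adjustment.

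**Figure D2:**
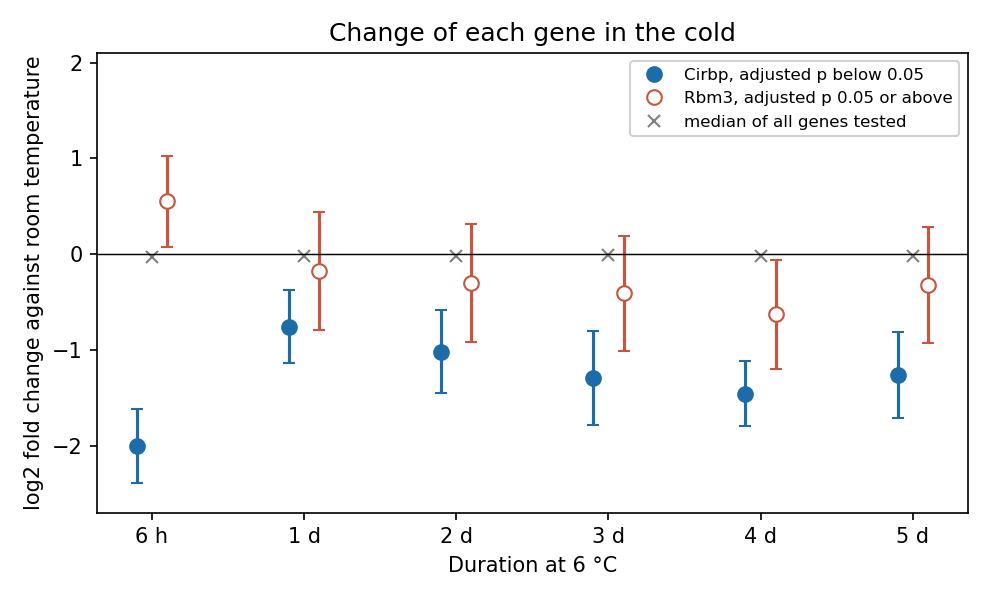
log2 fold change against RT (vertical axis) of Cirbp and Rbm3 at each duration at 6 °C (horizontal axis), from edgeR with 5 against 5 mice. Whiskers are 95% intervals, filled points have an adjusted p below 0.05, and crosses mark the median of all genes tested, which lay between −0.03 and −0.01. Cirbp is below 0 at all 6 durations, lowest at 6 hours at −2.0, while Rbm3 is above 0 at 6 hours only.

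Comparisons among the cold groups leave out the RT mice, and in them Cirbp was higher at 1 and 2 days, and Rbm3 lower from 2 to 5 days, than at 6 hours. Cirbp was higher after 1 day than after 6 hours, by 1.23 on the log2 scale (SE 0.25, adjusted p = 0.00150), and after 2 days by 0.99 (SE 0.28, adjusted p = 0.0128). The groups did not overlap in either comparison, and 17.1% and 25.1% of genes were called. Against 6 hours the difference of Cirbp was 0.71 after 3 days (adjusted p = 0.0780), 0.56 after 4 days (adjusted p = 0.0880) and 0.74 after 5 days (adjusted p = 0.0503), none of them called, while 33.3%, 35.0% and 36.2% of genes were. The mice at 4 days did not overlap those at 6 hours. With each mouse left out in turn the difference at 5 days ran from 0.54 (adjusted p = 0.183 in edgeR, without 5 days replicate 1) to 0.91 (adjusted p = 0.0151, without 5 days replicate 2), and it was called in 2 of 10 such fits, the other being without 5 days replicate 4 (0.85, adjusted p = 0.0346).

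The log2 difference of Rbm3 from 6 hours was −0.85 at 2 days (adjusted p = 0.0345), −0.96 at 3 days (adjusted p = 0.00954), −1.17 at 4 days (adjusted p = 0.00128) and −0.88 at 5 days (adjusted p = 0.0171), and in these comparisons no mouse of the later group reached the lowest mouse at 6 hours. After 1 day it was −0.74 (adjusted p = 0.0749), with 1 mouse, replicate 5, inside the range at 6 hours, and with each mouse left out in turn it ran from −0.95 (adjusted p = 0.0269 in edgeR, without that mouse, the only call) to −0.54 (adjusted p = 0.20, without 1 day replicate 1). All 5 of these differences share the mice at 6 hours. Over all genes 25.1% were called against 6 hours at 2 days, 33.3% at 3 days, 35.0% at 4 days and 36.2% at 5 days.

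In order of mean level, Cirbp was highest at RT (15.2 CPM), followed by 1 day (9.05 CPM), 2 days (7.67 CPM), 5 days (6.45 CPM), 3 days (6.40 CPM), 4 days (5.62 CPM) and 6 hours (3.88 CPM). Of these neighbours RT and 1 day were called, with 1 mouse at 1 day inside the RT range, and no other neighbouring pair was. The lowest pair, 4 days and 6 hours, was not called, and 35.0% of genes were called there. Its mice did not overlap. Between the other uncalled neighbours few genes were called, 1.64% between 1 and 2 days, 5.03% between 2 and 5 days and 2.72% between 3 and 5 days. Between 3 and 4 days edgeR called 0%, with 833 genes at an unadjusted p under 0.05, and DESeq2 called 18 genes. Further apart in the order, 4 days was lower than 1 day by 0.69 on the log2 scale (adjusted p = 0.0461) without overlap, where 14.9% of genes were called.

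For Rbm3 the order was 6 hours (6.11 CPM), RT (4.04 CPM), 1 day (3.70 CPM), 2 days (3.36 CPM), 5 days (3.27 CPM), 3 days (3.06 CPM) and 4 days (2.67 CPM), and no neighbouring pair was called. Between 2 and 3 days 0.0665% of all genes were called. Between 4 and 5 days edgeR called 0%, with 725 genes at an unadjusted p under 0.05, and DESeq2 called 5 genes. Neither member was called in either comparison. A single test over all 7 groups called both genes, Cirbp at an adjusted p of 9.7e-07 and Rbm3 at 0.0135, as it did 59.8% of the 12077 genes tested.

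The spread between mice was compared with counting error. From counting alone, the coefficient of variation between mice would be 11% to 24.1% for Cirbp in its 7 groups and 19.2% to 26.2% for Rbm3. The observed values, from unscaled reads and so with differences in depth included, were 16.6% to 44.1% for Cirbp and 9.80% to 39.9% for Rbm3. For Cirbp the spread was above counting error in 5 of 7 groups, for example 44.1% against 15.2% at 1 day, and below it at 6 hours and 4 days. The spread of Rbm3 was above counting error in 5 of 7 groups too, but below it at 4 days and at 6 hours, where it was 9.80% against 19.2%. The 109 Rbm3 reads of the RT group gave a level of 4.61 CPM before TMM scaling with an exact Poisson interval of 3.79 to 5.56 CPM (95%), and the 135 reads at 6 hours gave 5.90 CPM with an interval of 4.95 to 6.98 CPM. Such intervals cover counting error only.

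The ratio of Rbm3 to Cirbp reads within a library does not depend on how libraries are scaled. As log2 of the ratio, with 0.5 added to each count, the RT mice had −1.75, −1.58, −2.45, −2.44 and −1.35, and the mice at 6 hours 0.62, 1.20, 0.27, 0.62 and 0.57. All 5 mice at 6 hours were above all RT mice, and in all 5 of them Rbm3 reads outnumbered Cirbp reads, as they did in 1 mouse each after 3 and after 5 days. The difference was 2.58 (SE 0.27), a 5.96-fold change of the ratio, with an exact two-sided permutation p of 0.00794, the smallest that 5 against 5 mice allow, and 0.0476 after adjustment over 6 durations.

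After 4 days the log2 ratio was −1.07 ± 0.31 against −1.92 ± 0.50 at RT (SD, n = 5), a difference of 0.85 with an adjusted exact permutation p of 0.0476. With RT replicate 3 or 4, or 4 days replicate 1, 2, 3 or 4 left out, that difference was 0.71 to 0.92 and its adjusted exact permutation p 0.0952. The other durations had differences of 0.59 at 1 day, 0.74 at 2 days, 0.95 at 3 days and 0.99 at 5 days, with adjusted exact permutation p-values of 0.0952 to 0.214. Over all 35 mice the levels of the 2 genes, pooled over groups that differ in Cirbp, had a Pearson r of −0.08 and a Spearman rho of −0.08 (log2 CPM, permutation p = 0.665 and 0.633), and −0.12 once the 2 mice with the most extreme Cirbp level were left out. With each group mean removed, r was 0.06 and rho 0.04 (permutation p = 0.762 and 0.843, which are also the adjusted values of both relations).

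**Figure D3:**
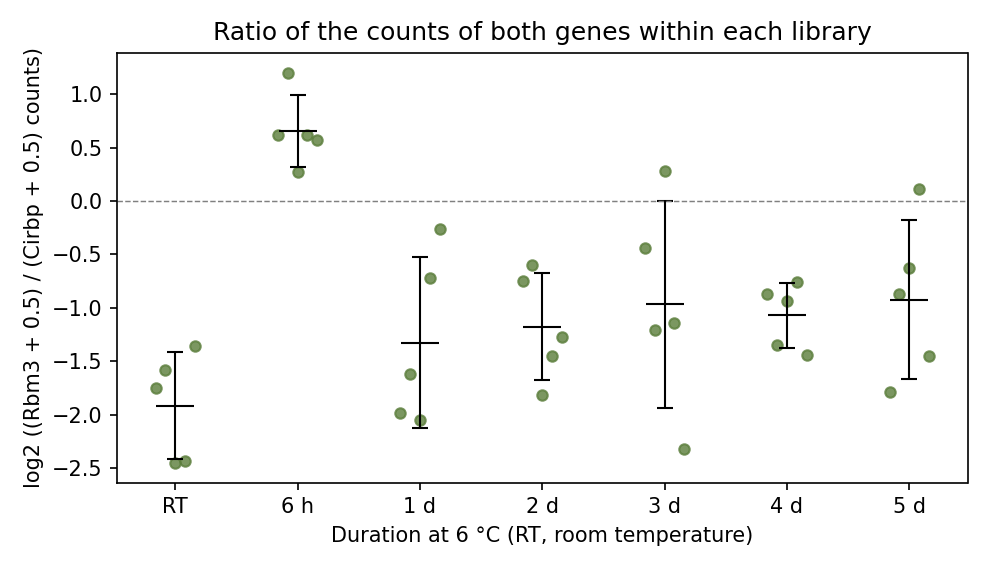
log2 ratio of Rbm3 to Cirbp reads, with 0.5 added to each, in each mouse (vertical axis) by duration at 6 °C (horizontal axis). Bars are the mean ± SD of 5 mice. The 6 hour mice lie between 0.27 and 1.20, above all RT mice, which lie between −2.45 and −1.35.

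Heat shock genes rose in the cold groups. The temperature of the tissue is not given, and its part in the values of these genes, Cirbp and Rbm3 was not tested. Of 15 listed genes tested 15 rose and 0 fell at 6 hours, with a median log2 fold change of 1.32 against −0.03 over all genes. The list holds 17 genes, and Hspa1a and Hspa1b had too few reads to be tested at 6 hours in edgeR. Their medians over the 35 libraries were 9 and 8 reads. Hsph1 (an HSP110 chaperone) went from 9.61 ± 2.69 CPM at RT to 86.0 ± 16.8 CPM at 6 hours (SD, n = 5), a log2 fold change of 3.14. Hspa8, the constitutive HSP70 chaperone, had a log2 fold change of 2.64 at 6 hours and 1.50 after 5 days, and Hsp90aa1, an HSP90 chaperone, 2.20 and 1.79. From 1 to 5 days 12 or 13 of the 15 or 16 tested rose and 0 fell, with medians between 0.91 and 1.10. The share called was 80% to 100%, against 31.0% to 42.8% of all genes.

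Kinases of the CLK family phosphorylate SR proteins in a temperature-dependent way and control the inclusion of exons that decide whether Rbm3 transcripts are kept, so these splicing factors were listed with the members. Of 19 genes tested, 4 rose and 1 fell at 6 hours, 2 rose and 0 fell at 1 day, 1 rose and 3 fell at 2 days, 2 rose and 6 fell at 3 days, 2 rose and 9 fell at 4 days, and 1 rose and 10 fell at 5 days. The share called was 26.3% of the list against 42.8% of all genes at 6 hours, 10.5% against 36.8% at 1 day, 21.1% against 31.0% at 2 days, 42.1% against 34.0% at 3 days and 57.9% against 38.0% and 38.6% at 4 and 5 days. With library size as the only scaling the split was 1 and 2 at 6 hours, 1 and 7 at 1 day, 0 and 7 at 2 days, 0 and 9 at 3 days, 0 and 11 at 4 days, and 0 and 13 at 5 days. That scaling moved the median log2 fold change of all genes to between −0.25 and −0.15, and the direction of this list at 6 hours and after 1 day flips with it.

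After 5 days Clk2 had a log2 fold change of −0.79, Tra2a, a splicing activator, of −0.67 and Clk1 of −0.57. Clk1 measured 65.3 ± 6.91 CPM at RT and 44.7 ± 4.45 CPM after 5 days (SD, n = 5). At 6 hours Srpk2, an SR protein kinase, had a log2 fold change of −0.57, while the SR proteins Srsf9 and Srsf1 had 0.52 and 0.42.

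RNA-binding proteins related to the members by an RNA recognition motif and low-complexity stretches moved in both directions. Of 15 tested, 5 rose and 2 fell at 6 hours, 2 and 3 at 1 day, 1 and 3 at 2 days, 1 and 2 at 3 days, 2 and 3 at 4 days and 2 and 4 at 5 days. The share called ran from 20% at 3 days, when 34.0% of all genes were, to 46.7% at 6 hours, when 42.8% were, and was near or below that of all genes throughout. With library size as the only scaling these splits were 2 and 3, 1 and 5, 0 and 5, 0 and 5, 0 and 3 and 0 and 6, so that the direction at 6 hours flips. At 6 hours the log2 fold change was 0.93 for Hnrnpa3, 0.60 for Tardbp (TDP-43) and −0.54 for Tia1, a stress granule protein. After 5 days it was −0.96 for Rbmx, −0.75 for Ewsr1 and −0.34 for Tia1, beside −1.26 for Cirbp.

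Cold shock domain proteins are the relatives of the bacterial cold shock proteins and share no RNA recognition motif with Cirbp and Rbm3. Of 5 tested, 1 rose and 2 fell at 6 hours, 1 and 3 at 1 day, 1 and 2 at 2 and at 3 days, 2 and 2 at 4 days and 3 and 2 at 5 days. With only 5 genes, 60% to 100% of the list was called, against 31.0% to 42.8% of all genes. With library size as the only scaling these splits were 0 and 3, 0 and 3, 1 and 3, 1 and 3, 2 and 2 and 1 and 2, so that the direction after 5 days flips. Carhsp1 went from 74.2 ± 6.42 CPM at RT to 31.8 ± 3.01 CPM at 6 hours (SD, n = 5), a log2 fold change of −1.25. Ybx2 had −0.68 at 6 hours and 0.61 after 5 days, and Ybx3 0.42 and 0.73.

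Of 11 genes tied to the members by earlier work, as regulators or as targets, 5 or 6 had enough reads to be tested. At 6 hours 2 rose and 1 fell, after 1 and after 2 days 1 and 1, and after 4 and after 5 days 1 and 2. After 3 days edgeR and DESeq2 called 0 of them, with 1 at an unadjusted p under 0.05. At the other durations 40% to 60% of the 5 or 6 genes were called, against 31.0% to 42.8% of all genes. With library size as the only scaling 1 rose and 3 fell at 6 hours, 1 and 2 after 1 day, 0 and 2 after 3 days and 0 and 3 at the other durations. Ntrk2, the receptor of brain-derived neurotrophic factor and placed upstream of Rbm3 in neurons, had a log2 fold change of 0.89 at 6 hours and 0.47 after 5 days. Rtn3, placed downstream of RBM3 in neurons, had 0.32 at 6 hours. Sp1 measured 63.6 ± 3.64 CPM at RT and 51.1 ± 8.37 CPM after 5 days (SD, n = 5), a log2 fold change of −0.34.

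Transcripts of the circadian clock differed from RT at every duration. Of 15 tested, 6 rose and 7 fell at 6 hours, 4 and 9 at 1 day, 4 and 10 at 2 days, 3 and 8 at 3 days, 3 and 9 at 4 days, and 4 and 11 at 5 days. The share called was 73.3% to 100%, against 31.0% to 42.8% of all genes. Nr1d1 (REV-ERB alpha) had a log2 fold change of −2.90 at 6 hours, when Dbp, a clock output factor, had −2.71 and Per3 −2.68. After 5 days Dbp had −3.15, Per3 −2.98 and Tef −2.22. Arntl rose, with log2 fold changes of 3.53 at 6 hours and 1.91 after 5 days, on means of 42.6 and 17.2 reads. Nfil3 rose too, by 2.47 and 1.52. Cirbp fell in the same groups. The hour of tissue collection is not given for any group, and its part in the values of Cirbp was not tested.

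**Figure D4:**
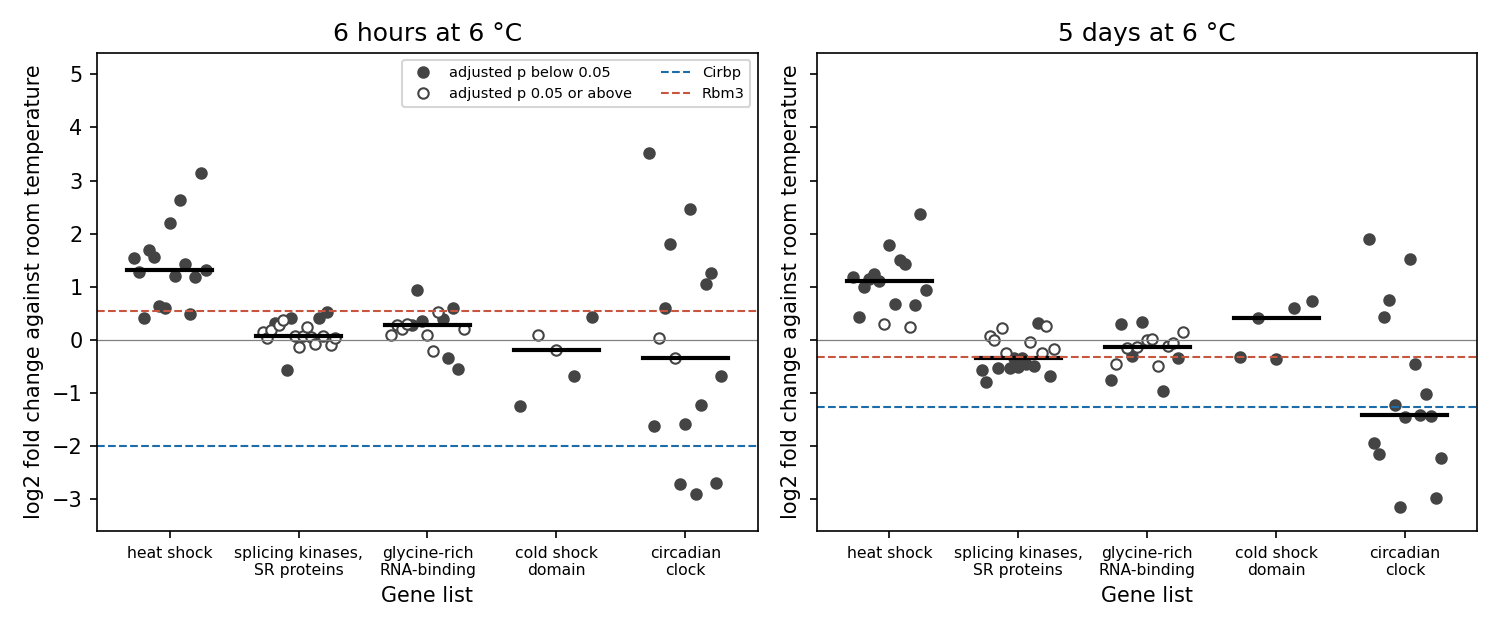
log2 fold change against RT (vertical axis) of the genes of 5 lists at 6 hours (left) and 5 days (right), 5 against 5 mice. Each point is a gene, filled where the adjusted p is below 0.05, thick bars are list medians, and dashed lines give Cirbp and Rbm3. All 15 heat shock genes tested lie above 0 at 6 hours, while Cirbp lies at −2.0, below all plotted genes but 3 of the clock.

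Summed levels of cell type markers differed between groups. The summed level of 5 endothelial markers was 307 to 365 CPM at RT, 495 to 609 CPM at 6 hours, 558 to 659 CPM at 1 day and 419 to 609 CPM at 2 days, all 3 above RT without overlap. The 7 brown adipocyte markers summed to 17023 to 23297 CPM at 6 hours, 16814 to 21948 CPM at 1 day and 16183 to 20484 CPM at 5 days, above their range at RT given earlier. Ucp1, also used to check the response to cold, is among these 7 markers. Its mean was 1897 CPM at RT, 7216 CPM at 6 hours, 7842 CPM at 1 day and 7611 CPM at 5 days. The sum without Ucp1 was not taken, so these sums do not show a rise of the other markers. The 5 stromal markers summed to 495 to 731 CPM at RT and 339 to 450 CPM at 1 day, wholly below RT, and their ranges overlapped RT in the other cold groups.

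The 5 erythroid markers summed to 1803 to 2316 CPM at RT, 2489 to 4492 CPM at 1 day and 2709 to 4980 CPM at 5 days, both wholly above RT, with overlap in the other cold groups. The 5 proliferation markers summed to 5.68 to 8.26 CPM at RT and 1.98 to 4.08 CPM at 1 day, below RT without overlap. They summed to 21.7 to 44.7 CPM at 3 days, 15.1 to 63.4 CPM at 4 days and 11.2 to 47.9 CPM at 5 days, above RT without overlap. The 5 macrophage markers summed to 44.2 to 103 CPM at RT and 43.2 to 218 CPM in the cold groups. Their median was 51.5 CPM at RT, 55.0 CPM at 6 hours, 60.7 CPM at 1 day and 66.2 CPM at 2 days. It was higher later, at 123 CPM at 3 days, 152 CPM at 4 days and 111 CPM at 5 days. The 7 skeletal muscle markers varied from 2.31 to 1124 CPM over all mice. For both lists the range at RT overlapped that of each cold group. The 4 B cell and 4 T cell markers summed to at most 2.34 and 7.02 CPM in any mouse, and the T cell sums lay below RT (1.79 to 3.05 CPM) without overlap at 6 hours (0.46 to 1.56 CPM) and 5 days (0.44 to 1.18 CPM). The T cell sums rest on very few reads, as each of the 4 genes had 27 to 134 reads over all 35 libraries together. The part of these shifts in the changes of Cirbp and Rbm3 was not tested.

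The genes most like each member over the 35 libraries were taken by Pearson r of log2 CPM among genes with a mean of at least 20 reads, 8885 for Cirbp and 8886 for Rbm3. For Cirbp these were Coq8a (r = 0.82), Thra (thyroid hormone receptor alpha, r = 0.80), Sspn (sarcospan, r = 0.80), Angptl2 (r = 0.78) and Cdh2 (N-cadherin, r = 0.78). Coq8a had a mean of 402 CPM at RT, 54.5 CPM at 6 hours and 151 CPM after 5 days. With group means removed, r fell to between 0.43 and 0.53 for these 5 genes.

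For Rbm3 the nearest genes were Csrp2 (r = 0.67), Mesd (r = 0.66), Fau (r = 0.65), Rpl7 (r = 0.64) and Nat10 (r = 0.64), and with group means removed r was 0.31 to 0.43. Csrp2 had a mean of 72.7 CPM at RT, 127 CPM at 6 hours and 45.5 CPM after 5 days, with log2 fold changes of 0.77 and −0.70. At 6 hours Mesd was called too, at 0.37, while Fau (0.16), Rpl7 (0.13) and Nat10 (0.43) were not. The libraries share their groups and their scaling, and these values describe likeness only.

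**Figure D5:**
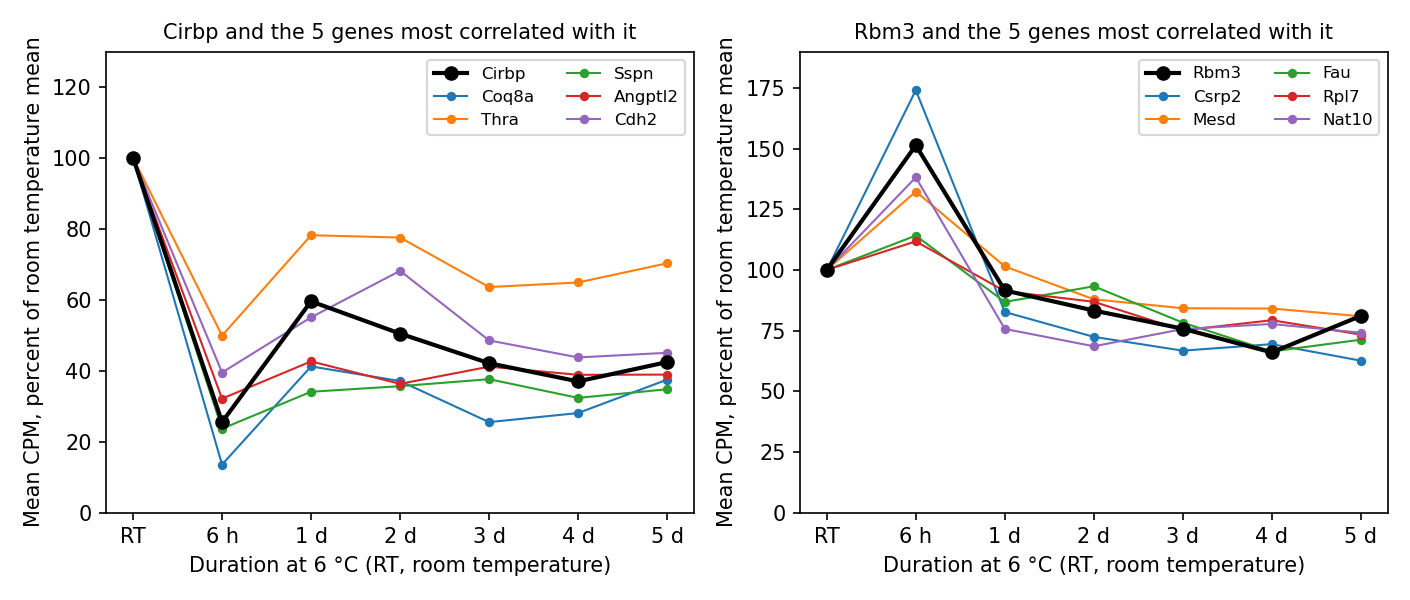
Mean CPM of each group as a percent of the RT mean (vertical axis) by duration at 6 °C (horizontal axis), for Cirbp (left) and Rbm3 (right), each in black, and for the 5 genes with the highest Pearson r to it. Lines join means of 5 mice. The Cirbp group is lowest at 6 hours, where Cirbp is at 25.5%, and the Rbm3 group is highest there, where Rbm3 is at 151%. The genes were picked by r over these same libraries, so the likeness of their courses comes with the choice.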

How the data were processed

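Whole-tissue RNA of one iBAT pad per mouse was made into QuantSeq 3′ libraries. Per the study's methods and the submitters' processing notes, the authors aligned reads to GRCm38 with STAR 2.6.1d and deposited whole-number read counts per Ensembl gene from HTSeq 0.11.2. Whether HTSeq used strand is not given in the sources used here. Gene symbols came from the GENCODE M21 annotation of the same build (55154 of 55421 rows), and the promoter windows from RefSeq on GRCm38.p6, in which Cirbp matched.

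Each pair of groups was fitted on its own in edgeR 4.0.16 (R 4.3.3) with TMM scaling, the filterByExpr filter at its minimum of 10 counts, a robust quasi-likelihood fit and Benjamini-Hochberg adjustment over all genes tested, with a threshold of 0.05. Intervals of fold changes are 95% Wald intervals from the SE. Per-mouse values are TMM-scaled CPM, with a prior count of 2 on the log2 scale. The within-library ratio was tested exactly over 252 assignments of 5 against 5 mice, and correlations with 100000 permutations. Before use, the fitting code was tested on simulated data. Alternatives were DESeq2 1.42.0, its size factors in edgeR (RLE), library size alone, no filter, mitochondrial genes and Gm42418 left out, all 7 groups in 1 fit, a replicate block and each mouse left out. Labels name no batch, and replicates are separate mice. Library totals of 3846016 to 6047247 reads limit the precision of low genes.

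The members, gene lists and tests were chosen with earlier results of these data known. Named from each list were, at 6 hours and 5 days, up to 3 called genes with the largest change and a mean of at least 50 counts, and for each member the 5 genes with the highest r among those with at least 20. Arntl and Nfil3 are named outside that rule, as clock genes that rose. No list was tested as a set.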

Additional observations from a re-analysis of the deposited data

Results flagged for a closer look

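Several differences between durations of cold passed the test of the difference itself, in edgeR with 5 against 5 mice. Cirbp differed from 6 hours by 1.23 after 1 day and by 0.99 after 2 days, and 4 days differed from 1 day by −0.69, all on the log2 scale. Rbm3 differed from 6 hours by −0.85 at 2 days, −0.96 at 3 days, −1.17 at 4 days and −0.88 at 5 days. The 5 mice at 6 hours enter all but 1 of these differences. Cirbp and Rbm3 levels and their ratio were also screened with Dixon's test in 21 groups of 5 mice, in which chance marks about 1 in 20 groups, and no mouse was marked.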

How the results depend on the processing

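The 6 falls of Cirbp against RT kept their direction and stayed called under every alternative and with each mouse left out, with values between −2.19 and −0.66 in 108 refits. The Rbm3 comparisons with RT were called in 2 of 108, both at 6 hours: 0.58 in the exact permutation test and 0.70 without RT replicate 5 (range 0.44 to 0.70 with each mouse left out). With library size as the only scaling Rbm3 at 6 hours was 0.36.

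Leaving out each mouse gave ranges of −0.39 to 0.0261 for Rbm3 at 1 day against RT (above 0 without 1 day replicate 1), −0.31 to 0.10 at 2 days against 1 day, −0.28 to 0.0609 at 3 days against 2 days and −0.95 to −0.54 at 1 day against 6 hours (called without 1 day replicate 5). For Cirbp they were −0.35 to 0.18 at 4 days against 3 days, −0.0177 to 0.35 at 5 days against 4 days and 0.54 to 0.91 at 5 days against 6 hours, which was called without 5 days replicate 2 or 4 and, at 0.74, with mitochondrial genes and Gm42418 left out. The ratio ranged from 0.64 to 1.29 at 3 days (called without 3 days replicate 5), from 0.71 to 0.99 at 4 days (lost without RT replicate 3 or 4, or 4 days replicate 1, 2, 3 or 4) and from 0.73 to 1.21 at 5 days (called without 5 days replicate 1). Rbm3 at 2 days against 6 hours was −0.85 with an adjusted p of 0.0587 in edgeR without the filter. With library size as the only scaling, 5 days against 3 days became −0.0269 for Cirbp and −0.0297 for Rbm3, and r over all mice 0.0298. The cause of these changes was not tested.

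The labels number the mice of each group, but same-numbered mice did not deviate together: of 30 pairs with RT, 2 had a correlation over 0.1 (range −0.18 to 0.13), so the numbers were not taken to pair mice. With a replicate block Cirbp at 6 hours was −2.0 and Rbm3 0.57 (adjusted p = 0.0672 in edgeR), and no call against RT of either gene changed. Sign flips of the ratio within the replicate block gave 2.58 at 6 hours and 0.85 at 4 days, no longer called, in a test whose smallest p is 0.0625. At 8 to 31 Rbm3 reads per library, changes of Rbm3 smaller than its intervals were not detectable at this depth.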
